A study of Mus musculus with 4 samples.

Results

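Aquaporins are membrane channels through which water, and in some members glycerol, crosses cells. Signals of 7 aquaporin genes, Aqp1, Aqp3, Aqp4, Aqp5, Aqp7, Aqp9 and Aqp11, were examined in mouse parietal peritoneum, the membrane that lines the inside of the abdominal wall. The genes were chosen by name, as members of the family with expected sources in blood vessels, muscle, fat and leukocytes, and all 16 of their probe sets were used, out of 45037 on the array that named 18193 genes. Parietal peritoneum of C57BL/6J mice was hybridised to 4 Affymetrix arrays, 1 for each combination of genotype and treatment. Wild-type mice (WT) were compared with SAP-BNP-Tg mice, which carry a brain natriuretic peptide transgene under the serum amyloid P promoter, a promoter active in the liver, so that the hormone reaches the peritoneum from elsewhere. Mice of each genotype were injected into the peritoneal cavity with chlorhexidine gluconate, an irritant antiseptic, or with an ethanol and PBS vehicle. Chlorhexidine was given as a 0.1% solution with 15% ethanol and 85% PBS, at 0.01 mL per gram of body weight, 3 times per week for 21 days. The labels do not give the age of the mice, the number of mice behind an array, or the proportions, volume and schedule of the vehicle.

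Aqp1, Aqp4 and Aqp5 belong to the water-selective channels. Aqp1 is the channel of capillary endothelium, red blood cells and mesothelium, and it carries much of the free water that an osmotic gradient draws across the peritoneum. Aqp4 sits in the sarcolemma of fast skeletal muscle fibres, held there by the syntrophins of the dystrophin complex, and Aqp5 is a channel of glands and airway epithelium. Aqp3, Aqp7 and Aqp9 are aquaglyceroporins, which pass glycerol as well as water, in epidermis, in adipocytes and capillaries, and in liver and leukocytes respectively. Aqp11 is a distant member found on intracellular membranes.

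Of the 7 genes, 4 were called Present (detected above mismatch background by the authors' detection call) on at least 1 array. All 5 probe sets that were Present on all 4 arrays belonged to Aqp1 (1 probe set), Aqp4 (3) and Aqp7 (1). A second Aqp7 probe set was Present on 3 arrays and 1 of the 3 Aqp11 probe sets on 1 array. The other 9 probe sets, covering Aqp3, Aqp5, Aqp9 and the rest of Aqp11, were Absent on all 4 arrays, with scaled signals from 0.18 to 15.9. For comparison, the 25th percentile of Present signals lay between 34.5 and 35.4. Signals of different probe sets are not on one scale, so levels are compared between arrays and not between genes.

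**Figure D1:**
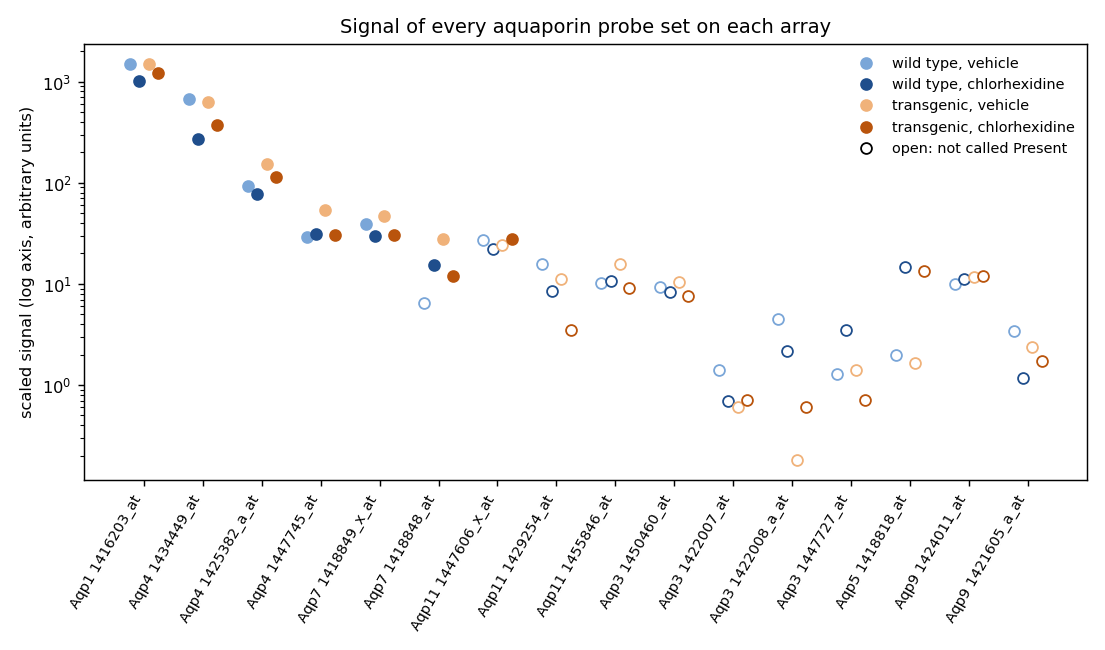
Scaled signal (log axis, arbitrary units) of each of the 16 aquaporin probe sets on the 4 arrays, filled where the array called it Present and open where it did not. Aqp1 and Aqp4 are filled on every array, while Aqp3, Aqp5 and Aqp9 are open on every array.

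In RefSeq (GRCm38.p6), Aqp7 and Aqp3 are neighbouring protein-coding genes on chromosome 4, and Aqp5 lies between Aqp2 and Aqp6 on chromosome 15. Of those neighbours, Aqp7 was detected and Aqp3 was not. Aqp1 is on chromosome 6, Aqp4 on 18, Aqp11 on 7 and Aqp9 on 9. RefSeq promoter sequence was held for 6 of the 7 genes. The bases before the outermost annotated start are shown for Aqp1 and Aqp7, the genes with an entry that were Present on all 4 arrays, because both lay lower with chlorhexidine in both genotypes at the probe set that stands for the gene. Capitals mark a GC box (GGGCGG). The Aqp1 stretch covers chr6:55336049-55336298 on the plus strand and the Aqp7 stretch chr4:41048238-41048386 on the minus strand, each written 5′ to 3′.
Aqp1: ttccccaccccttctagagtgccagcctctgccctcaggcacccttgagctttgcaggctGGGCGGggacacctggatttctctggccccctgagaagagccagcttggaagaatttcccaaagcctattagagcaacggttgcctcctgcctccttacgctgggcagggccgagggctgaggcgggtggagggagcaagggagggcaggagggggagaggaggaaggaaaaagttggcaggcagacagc
Aqp7: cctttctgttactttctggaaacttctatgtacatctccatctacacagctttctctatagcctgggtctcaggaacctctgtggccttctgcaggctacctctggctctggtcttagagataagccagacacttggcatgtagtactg
The Aqp1 stretch of 250 bases had a GC content of 62.0% and 5 CG dinucleotides. The Aqp7 stretch of 149 bases had 47.7% and 0. A search on both strands found 1 GC box in Aqp1, with its first base 190 bases before the start, and none in Aqp7, where 32.7% and 16.6% of 32851 promoter stretches of the same lengths held one. The TATA box (TATAAA), the E-box (CACGTG), a nuclear receptor half-site (AGGTCA) and a direct repeat of that half-site with 1 base between its copies, which contains it, were found in neither stretch. They occurred in 12.4%, 6.02%, 14.0% and 0.0335% of all stretches of 250 bases. Of those of 149 bases, 7.26%, 2.86%, 8.42% and 0.0122% held them. The stretches of 149 bases were the first bases of each promoter sequence. Their distance to a start can therefore differ from that of the Aqp7 stretch.

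The arrays called 50.5% to 55.1% of probe sets Present. The array of wild-type vehicle peritoneum differed from the rest in some quality controls. Its mean 18S rRNA signal was 1052 against 81.5 to 108 on the others, and its 3-prime to middle beta-actin ratio 5.81 against 2.23 to 2.84. The 3-prime to 5-prime beta-actin ratio set it apart little, at 1.22 against 1.07 to 1.15. Wild-type chlorhexidine differences of Aqp1, Aqp4 and Aqp7 are therefore also given against the transgenic vehicle array, as are most medians of other gene groups. Nppb, the gene for the transgene's hormone, was Absent on all 4 arrays at signals of 4.04 to 20.1, which does not check the genotype labels. Mesothelial markers were detected, with 12 of 13 genes Present on all 4 arrays. Fast muscle genes gave signals near the top of each array, so RNA of abdominal wall muscle was in the samples as well. In such mixed tissue, fewer cells of a type and less RNA per cell cannot be told apart.

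Calls required a log2 difference of at least 1 (2-fold) and, on the brighter array, a Present call and a signal no lower than the 25th percentile named above. With 1 array per group this is a rule of size without a replicate check. At the probe sets used, Aqp11, at 21.9 to 27.8, lay below that percentile on every array and could not be called. Aqp7, at 29.5 and 30.4 on the chlorhexidine arrays, could not be called higher there. Different probe sets of the same gene varied by an SD of 0.454 in the wild-type difference and 0.294 in the transgenic one (4431 genes), a spread between measurements of the same RNA and not between animals. Chlorhexidine against vehicle in wild type called 1 of the 4 detected aquaporins lower, Aqp4, and 0 higher. Among 12754 genes detected on at least 1 array, 4.93% were called lower and 8.22% higher. In transgenic mice 0 aquaporins were called lower or higher, where 1.40% and 3.81% of all genes were. With the vehicle arrays exchanged, Aqp4 was again the 1 aquaporin called lower in wild-type chlorhexidine peritoneum (3.57% of all genes lower, 7.23% higher), and 0 were called in transgenic chlorhexidine peritoneum (2.45% lower, 5.17% higher). At the probe set that stands for each gene (the one with the highest mean signal), Aqp1, Aqp4 and Aqp7, the aquaporins Present on all 4 arrays, lay below vehicle in both genotypes, as did 36.4% of all detected genes. Aqp11 was Present only on the transgenic chlorhexidine array. Its wild-type difference thus rests on signals not above background, as does the vehicle side of its transgenic difference. Over all 7 genes, undetected ones included, the median log2 difference was -0.31 for wild type, and for the transgenic pair -0.30, against 0.00 and 0.00 over all detected genes. The wild-type median is the value of Aqp11, from 2 Absent signals.

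The mean chlorhexidine difference was tested with limma, in a model holding treatment and genotype as additive terms that leaves 1 residual degree of freedom. Its p-values measure only the spread among these 4 arrays. After Benjamini-Hochberg adjustment over 12754 genes, limma passed 0 of the 4 aquaporins at 0.05, and 12 genes (0.0941%) in all. At an unadjusted p under 0.05, 1 aquaporin, Aqp4, and 2939 genes passed. The fit takes a difference in response between the genotypes as error, and a difference of responses has no residual degree of freedom and no test here.

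**Figure D2:**
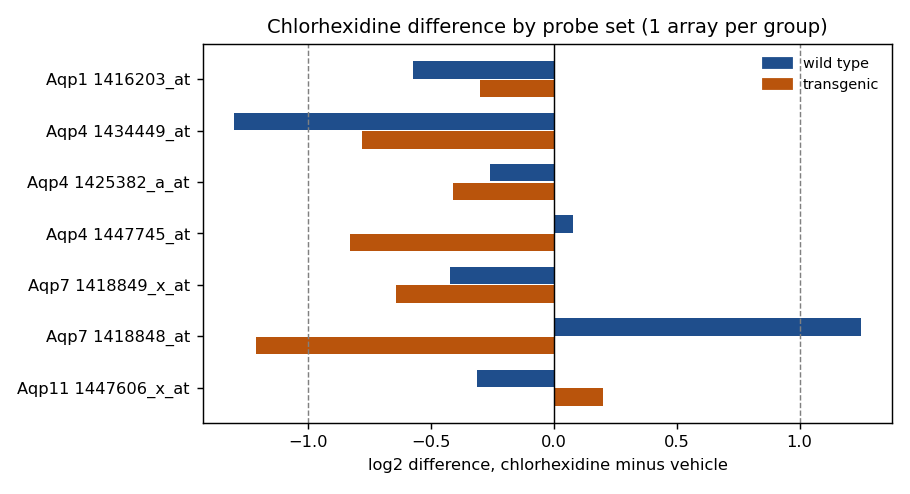
Log2 difference of chlorhexidine minus vehicle (horizontal axis) for each aquaporin probe set Present on at least 1 array, in wild type (blue) and transgenic mice (orange), 1 array per group and no error bars. Dashed lines mark 2-fold. The Aqp4 probe set 1434449_at passes the line in wild type at -1.30, and the dim Aqp7 probe set 1418848_at points in opposite directions at 1.25 and -1.21.

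Aqp1, the endothelial and red cell water channel, had a lower signal in both chlorhexidine arrays. Its scaled signal was 1502 in wild-type vehicle, 1009 in wild-type chlorhexidine, 1494 in transgenic vehicle and 1212 in transgenic chlorhexidine peritoneum. Both vehicle arrays lay above both chlorhexidine arrays, and the vehicle arrays differed from each other by -0.01 on the log2 scale. Chlorhexidine signal was thus lower by 1.49-fold (log2 -0.57) in the wild type, and by 1.23-fold (log2 -0.30) in the transgenic pair. Set against transgenic vehicle instead, the value was also -0.57. Of all detected genes, 19.6% had a lower difference in wild type and 22.4% in transgenic mice. The additive limma fit gave a coefficient of -0.44 with an SE of 0.22 and an adjusted p of 0.305 (Benjamini-Hochberg). These differences passed neither rule.

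Of the 20 endothelial genes detected, 8 lay below vehicle in wild type, the direction of Aqp1, and 10 in the transgenic pair. In all 21 were measured, of which 20 were Present on all 4 arrays and Erg, an endothelial transcription factor, on none. Their median log2 difference was 0.25 in wild type (0.19 against the transgenic vehicle array) and -0.02 in transgenic mice, with 4 called higher and 0 lower in wild type and 0 in either direction in transgenic mice. None of them passed the limma fit. Their summed signal was 2659 and 3476 for wild type (vehicle, then chlorhexidine), and 3033 and 3054 for the transgenic pair. Among the 3 with the highest signal, the phosphatase Ptprb was 1.21-fold and 1.28-fold lower and the adhesion protein Esam 1.16-fold lower in both genotypes, while the TGF-beta co-receptor Eng was 2.32-fold and 1.23-fold higher. Only 1 of the 21, the nitric oxide synthase Nos3 at -0.99, had a lower wild-type difference than Aqp1, and 5 of the 21 did in transgenic mice. The wild-type endothelial median was above 0 under each of the 4 other scalings, at 0.02 to 0.50, whereas the transgenic one lay between -0.22 and -0.03.

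Red blood cell genes differed most on the transgenic chlorhexidine array. Alas2, the first enzyme of erythroid haem synthesis, had signals of 193, 213, 150 and 1178 in the order given for Aqp1. Slc4a1, the anion exchanger of the red cell membrane, had signals of 27.9, 34.1, 9.65 and 188 in that order, with all 4 Present. The transgenic chlorhexidine array was thus the highest for both, while for Aqp1 it lay below both vehicle arrays. Hba-a2, an alpha-globin gene and the only other red cell gene detected, had low signals of 7.96, 18.8, 11.1 and 15.0, highest on the wild-type chlorhexidine array and Present on both chlorhexidine arrays only. Of 9 measured red cell genes, 6 were Present on none of the 4 arrays, among them Klf1 and Hba-a1. Kel, 1 of these 6, had a marginal call on the transgenic chlorhexidine array. The summed signal ran from 181 to 302 on 3 arrays and was 1452 on the transgenic chlorhexidine one. The part of red cells in the Aqp1 signal was not tested.

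Mesothelial genes, the further source of Aqp1, had a median of -0.83 in wild type (-0.86 against the transgenic vehicle array) and -0.18 in transgenic mice, over 13 measured genes. By the size rule 5 were lower in wild type and 1 was higher in transgenic mice. Upk3b, a surface protein of mesothelium, had signals of 189, 56.4, 184 and 155 in the same order. The wild-type chlorhexidine array was the lowest for Upk3b, as it was for Aqp1, and the summed mesothelial signal was 558 there against 835 to 1111 on the other arrays. Not all shared that direction, as 11 of the 13 lay below vehicle in wild type and 7 in the transgenic pair. Wt1 was highest on the wild-type chlorhexidine array, with signals of 31.5, 60.7, 21.8 and 52.3. The part of mesothelial cells in the Aqp1 signal was not tested.

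Aqp4, the water channel of fast muscle fibres, was the aquaporin with the largest called difference. Its brightest probe set, 1434449_at, gave 669.9 in wild-type vehicle, 272 in wild-type chlorhexidine, 635 in transgenic vehicle and 370 in transgenic chlorhexidine peritoneum. Both chlorhexidine arrays lay below both vehicle arrays, and the vehicle arrays differed by -0.08 on the log2 scale. The difference was 2.46-fold lower in wild type, 2.33-fold lower against the transgenic vehicle array and 1.72-fold lower in transgenic mice. Of all detected genes, 3.75% had a lower wild-type difference and 5.29% a lower transgenic one. The limma fit gave a coefficient of -1.04 with an SE of 0.24, an unadjusted p of 0.00878 and an adjusted p of 0.112 (Benjamini-Hochberg). Over the 9 alternative fits the adjusted p of limma ran from 0.000133 to 0.412 and was under 0.05 in 2.

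The Aqp4 probe sets disagreed in wild type. Probe set 1425382_a_at gave 92.8 and 77.4 in wild type (vehicle, chlorhexidine) and 152 and 114 in transgenic mice, a log2 difference of -0.26 and -0.41. Probe set 1447745_at gave 29.4 and 31.1 in wild type and 54.0 and 30.3 in transgenic mice, at 0.08 and -0.83. The range over the 3 probe sets was 1.38 in wild type, where 91.1% of 1062 genes with 3 such probe sets had a smaller one, and 0.42 in transgenic mice, where 55.6% did. Between the vehicle arrays the 3 probe sets differed by -0.08, 0.71 and 0.88 (transgenic minus wild type), with 1434449_at first. Against the transgenic vehicle array all 3 were lower on the wild-type chlorhexidine array, at -1.22, -0.97 and -0.80. Between the chlorhexidine arrays they differed by 0.44, 0.56 and -0.04. The part of the wild-type vehicle array's quality-control differences in the disagreement was not tested.

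Fast muscle fibre genes differed less than Aqp4. All 12, the fast myosins and troponins among them, were Present on all 4 arrays, and their median log2 difference was -0.24 in wild type (0.05 against the transgenic vehicle array) and 0.06 in transgenic mice. The wild-type median was -0.47 after median centring, 0.01 with the deposited scaling, 0.00 after quantile normalization and 0.32 under cyclic loess. By the size rule 0 of 12 were called in either genotype, and no fast fibre gene had a lower difference than Aqp4 in either genotype. Tnnt3, fast troponin T, had signals of 11440, 8490, 9677 and 9229 in the order used above, Tnni2, fast troponin I, was 1.17-fold lower and 1.01-fold higher, and Mylpf, the fast regulatory light chain, was 1.18-fold lower and 1.10-fold higher. These signals are close to the highest on each array, which ran from 9317 to 11440, and saturation was not tested.

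Slow fibre genes were called lower mostly in comparisons with the wild-type vehicle array, and the difference between genotypes was not tested. By the size rule, in wild type 6 of 8 measured genes were called lower, and in the transgenic pair 0. Their medians were -1.33 and -0.68. With the vehicle arrays exchanged, 2 were called lower in wild-type chlorhexidine peritoneum (median -0.69) and 6 in transgenic chlorhexidine peritoneum (median -1.32). The median of transgenic minus wild type was -0.71 between the vehicle arrays and 0.00 between the chlorhexidine arrays. Myh7, slow myosin, had signals of 7646, 2491, 4508 and 2464 in the order given for Aqp1. Atp2a2, the slow calcium pump, was 1.74-fold and 1.43-fold lower and Myl2, a slow light chain, 3.42-fold and 1.85-fold lower. Aqp4 lay inside the slow fibre range, with 4 of 8 genes lower than it in wild type and 3 of 8 in transgenic mice. The calcium store protein Casq2 was at -0.15 and 0.68.

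The dystrophin complex, which anchors Aqp4, had 11 measured genes with medians of -0.11 in wild type (-0.23 from transgenic vehicle) and -0.18 in transgenic mice. The wild-type median was 0.14 with the deposited scaling. The dystroglycan gene Dag1 was 1.38-fold lower and 1.03-fold higher, sarcospan (Sspn) 1.45-fold and 1.24-fold lower, and alpha-sarcoglycan (Sgca) 1.73-fold and 1.18-fold lower. By the size rule 1 was lower in wild type, the muscle nitric oxide synthase Nos1, named after its value was seen. Its signals were 287, 127, 297 and 164 in the same order, with log2 differences of -1.18 and -0.86. None of the complex's genes lay below Aqp4 in wild type and 1, Nos1, did in transgenic mice.

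**Figure D3:**
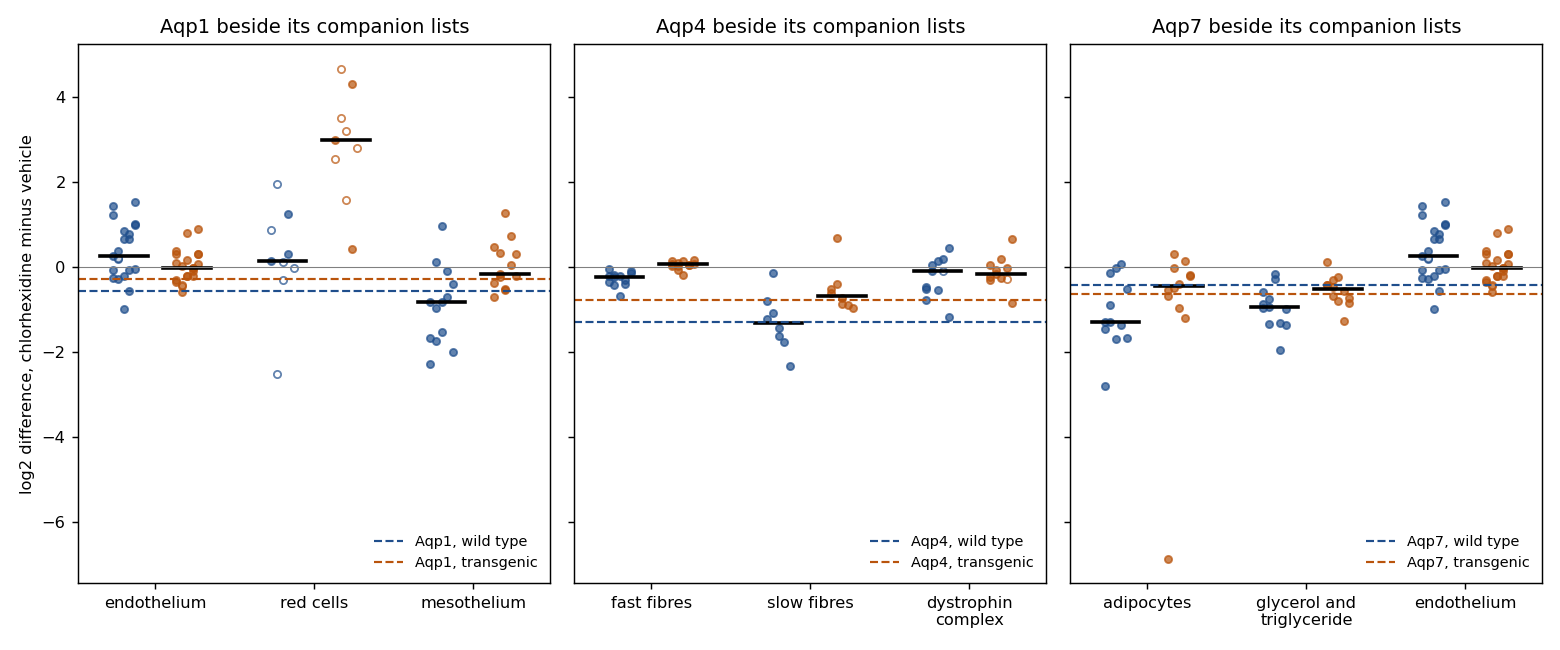
Log2 difference of chlorhexidine minus vehicle (vertical axis) for Aqp1, Aqp4 and Aqp7 (dashed lines) and for each measured gene of their companion lists (points, open where never Present, with black bars at the list medians; Aqp7 also beside endothelium), in wild type (blue) and transgenic mice (orange). The Aqp4 lines lie below all 12 fast fibre genes and inside the slow fibre genes, and the Aqp7 lines lie inside the adipocyte and glycerol lists. The lowest point, Lep at -6.87, rests on an array without a Present call.

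Aqp5, the gland water channel, was Absent on all 4 arrays. Its signals were 1.99 and 14.6 in wild type (vehicle, chlorhexidine) and 1.67 and 13.5 in transgenic mice, with detection p-values of 0.112 to 0.932. Both chlorhexidine arrays were higher than both vehicle arrays, but all 4 values lie below the level at which a gene could be called, and no fold is given.

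Aqp7, the glycerol channel of adipocytes and capillaries, was detected at a low signal. Its brighter probe set, 1418849_x_at, gave 39.5 in wild-type vehicle, 29.5 in wild-type chlorhexidine, 47.4 in transgenic vehicle and 30.4 in transgenic chlorhexidine peritoneum. Both chlorhexidine arrays lay below both vehicle arrays. The log2 difference was -0.42 in wild type, -0.68 against the transgenic vehicle array and -0.64 in transgenic mice. Of all detected genes, 26.7% had a lower wild-type difference and 7.79% a lower transgenic one. The limma fit gave a coefficient of -0.53 with an SE of 0.22 and an adjusted p of 0.240 (Benjamini-Hochberg). The suffix of this probe set marks sequence shared with other transcripts, so its signal may not be that of Aqp7 alone.

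The other Aqp7 probe set, 1418848_at, gave 6.44 (not Present) and 15.4 in wild type and 27.9 and 12 in transgenic mice. Its log2 differences were 1.25 and -1.21, and on this probe set the wild-type vehicle array was the lowest. Against the transgenic vehicle array its wild-type difference was -0.86. Both Aqp7 probe sets thus lay below the transgenic vehicle array on each chlorhexidine array, while against wild-type vehicle they pointed in opposite directions.

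Genes of fat were called lower mostly in wild type. The size rule called 7 of 12 measured adipocyte genes lower in wild type, and 2 in the transgenic pair, with medians of -1.30 (or -1.27 from transgenic vehicle) and -0.45. Lpl, lipoprotein lipase, had signals of 6930, 3704, 6011 and 4214 in that order. The fatty acid carrier Fabp4 was 1.44-fold and 1.15-fold lower, while the carbonic anhydrase Car3, at 9317 to 10810, had the highest signal on both chlorhexidine arrays, where saturation was not tested. Of 12 genes of glycerol and triglyceride handling, 5 were called lower in wild type (7 against the transgenic vehicle array) and 1 in transgenic mice, with medians of -0.95 (-1.07 against transgenic vehicle) and -0.52. Not all shared that direction: the adipocyte regulator Pparg was at 0.06 and 0.14, and the gluconeogenic enzyme Pck1 at -0.88 and 0.10. Those named for their signal were Gpam, the first enzyme of glycerolipid synthesis, at 2.57-fold and 1.81-fold lower, the phosphatidate phosphatase Lpin1 at 2.50-fold and 1.48-fold, and the glycerophosphate dehydrogenase Gpd2 at 2.55-fold and 1.63-fold. In wild type 9 of 12 adipocyte and 10 of 12 glycerol genes lay below Aqp7, and in transgenic mice 4 and 5 did. The summed adipocyte signal was 34965 and 22006 in wild type and 32568 and 26301 in transgenic mice. Car3 alone made up 10810 and 9847, then 9449 and 9317, of these sums. Whether the signals of these lists came from fat alone, in samples that held muscle RNA, was not tested. The part of fat content in the Aqp7 difference was not tested either.

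Aqp9, the channel of liver and leukocytes, was not detected on any array. Its signals were 9.95, 11.3, 11.6 and 12 on its brighter probe set 1424011_at and 1.18 to 3.39 on 1421605_a_at. The 14 general leukocyte genes, by contrast, were Present on all 4 arrays, with medians of 0.63 in wild type (0.97 from transgenic vehicle) and 0.72 in transgenic mice, and 4 and 0 called higher. Ptprc, the common leukocyte antigen, had signals of 754, 974, 499 and 741. Neutrophil genes were higher in part: S100a8, a calprotectin subunit, was 9.12-fold and 9.89-fold higher and the granulocyte receptor Csf3r 5.27-fold and 3.58-fold, while Cxcr2, Camp and Ltf were Absent on all 4 arrays. With transgenic vehicle as the reference, the wild-type S100a8 difference was 2.39-fold. Over 10 measured neutrophil genes the medians were 0.24 and 2.33 (wild type, transgenic), and over the 7 detected on at least 1 array 2.40 and 1.84, so that the order of the genotypes turned. By the size rule 3 and 5 were higher, and 2 passed the limma fit at an adjusted p of 0.05 (Benjamini-Hochberg). No gene of the other companion lists passed it. For 13 macrophage genes the median was 1.19 in wild type (0.74 with the other vehicle array) and 0.75 in transgenic mice, with 8 and 3 called higher.

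Aqp3, the epidermal glycerol channel, was Absent on all 4 arrays with each of its 4 probe sets, at signals of 0.18 to 10.5 and detection p-values of 0.112 to 0.985. Of 11 measured genes of epidermis and squamous epithelium, 5 were Absent throughout, among them Krt1 and Lor, which define cornified skin. The 3 with the highest signal, Perp, Krt10 and Trp63, were Present on all 4 arrays. Their list's summed signal ran from 176 to 262.

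Aqp11, the intracellular channel, was Present only on the transgenic chlorhexidine array and only with probe set 1447606_x_at. Its signals there were 27.2 and 21.9 in wild type and 24.1 and 27.8 in transgenic mice, with log2 differences of -0.31 (-0.14 against the transgenic vehicle array) and 0.20. Its suffix, too, marks shared sequence, and without such probe sets the differences were 0.06 and -0.77, with the mean of probe sets -0.39 and -0.74. The other probe sets were Absent throughout, at 3.54 to 15.9 for 1429254_at and 9.19 to 15.7 for 1455846_at. The limma coefficient was -0.05 with an SE of 0.24 and an adjusted p of 0.915 (Benjamini-Hochberg). The remaining mouse aquaporins in the annotation, Mip, Aqp2, Aqp6, Aqp8 and Aqp12, had 9 probe sets, of which 8 were Absent on all 4 arrays and 1, for Aqp6, was Present on 1 array.

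Genotype differences of the detected aquaporins stayed under 2-fold at the probe set that stands for each gene. The other, dim Aqp7 probe set, 1418848_at, was 4.33-fold higher in transgenic than wild-type vehicle peritoneum, where it was not Present. By the size rule 0 of the 4 were called in transgenic against wild-type vehicle peritoneum, where 0.957% of all genes were called higher and 0.502% lower. Under chlorhexidine 0 were called as well, where 0.784% and 0.964% of all genes were. Aqp11 was too dim to be called in either comparison, and Aqp7 was too dim under chlorhexidine. Under chlorhexidine the transgenic array was higher by 0.26 for Aqp1, 0.44 for Aqp4 and 0.04 for Aqp7 on the log2 scale. For Aqp11, Absent on the wild-type array, it was higher by 0.34. The limma fit passed 0 of the 4 for genotype after Benjamini-Hochberg adjustment, as it passed 0% of all genes, and at an unadjusted p under 0.05 it passed 0 aquaporins and 633 genes. Subtracting the wild-type chlorhexidine difference from the transgenic one gave 0.27 for Aqp1, 0.52 for Aqp4, -0.22 for Aqp7 and 0.51 for Aqp11, which was not tested. The comparisons share arrays: each chlorhexidine difference uses a vehicle array that the vehicle comparison uses too.

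The patterns over the 4 arrays were set beside those of 10405 genes Present on all 4 arrays, by the root mean square distance of log2 signals centred on each gene's mean. Nearest to Aqp4 were Crat (0.014), a mitochondrial carnitine acetyltransferase with signals of 877, 357, 829 and 495, Fbxo31 (0.039) and Dhrs7c (0.041), a dehydrogenase of muscle. Within a distance of 0.1 lay 46 genes for Aqp4, 155 for Aqp7 and 695 for Aqp1. Nearest to Aqp1 were Pkm (0.009), a glycolytic enzyme, Dnajc4 (0.016) and Mepce (0.017). Nearest to Aqp7 were Kctd9 (0.022), Cry2 (0.024) and Per2 (0.027), the latter pair being circadian clock repressors with wild-type differences of -0.47 and -0.49. With 4 arrays, the distances are a description only.

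Genes of cell volume and osmotic regulation gave few calls. In wild type 1 of 9 measured genes was called higher, in the transgenic pair 0, and none was called lower in either, with medians of -0.20 (0.05 with the deposited scaling) and -0.30. The kinase Sgk1 had signals of 2551, 1840, 2552 and 2455, with the wild-type chlorhexidine array lowest, and the cotransporter Slc12a2 was 1.15-fold and 1.23-fold lower. The 1 called gene, the taurine transporter Slc6a6, had signals of 191, 450, 408 and 306, and its wild-type log2 difference was 1.24 but 0.14 against the transgenic vehicle array.

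**Figure D4:**
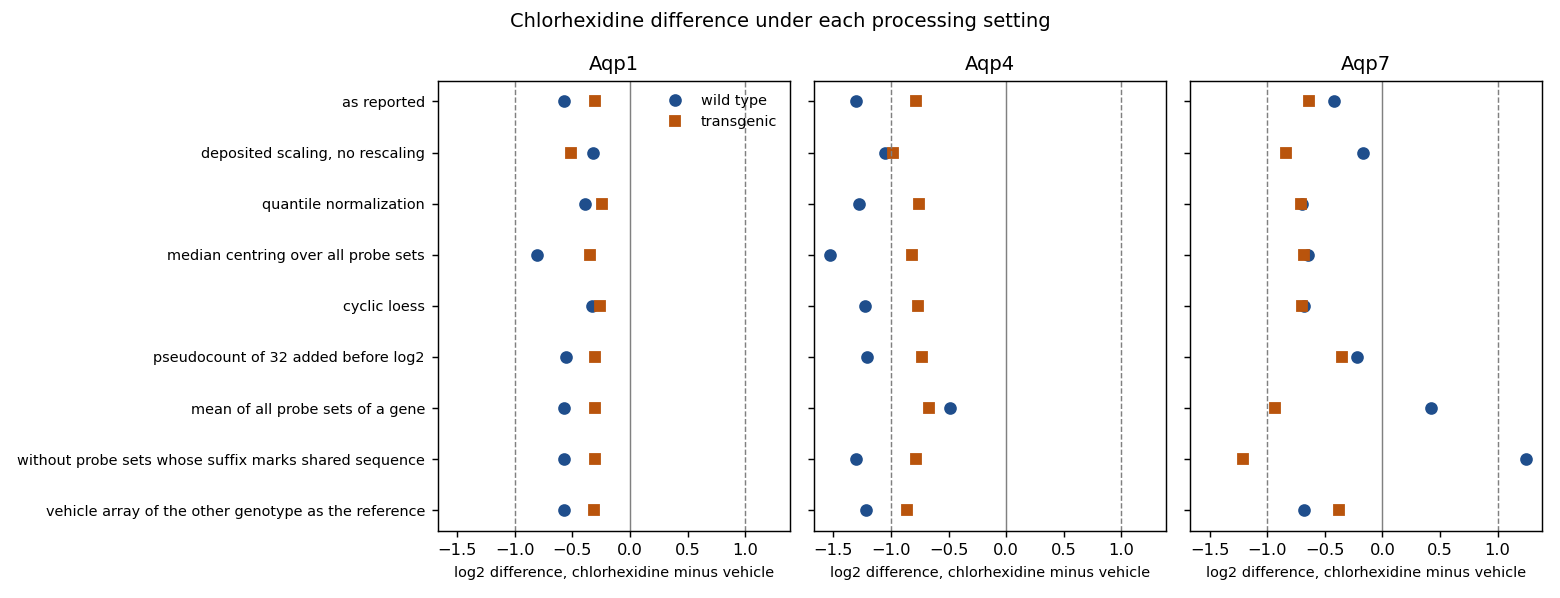
Log2 difference of chlorhexidine minus vehicle (horizontal axis) for Aqp1, Aqp4 and Aqp7 under the reported processing and 8 alternatives (vertical axis), in wild type (blue circles) and transgenic mice (orange squares), with dashed lines at 2-fold. Aqp1 and Aqp4 stay below 0 in every setting shown, and the wild-type Aqp7 value crosses 0 when the probe sets are averaged (0.42) or the shared-sequence probe sets are left out (1.25).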

How the data were processed

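Total RNA of parietal peritoneum was labelled by biotin in vitro transcription for 1 Affymetrix array per group, per the labels' protocols. The deposited signals are a linear intensity for each probe set, with a call and a detection p-value, per the file headers. Neither algorithm nor scaling target is given in these sources. The deposited series table held identical signals (0 values differed).

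Each array was scaled to a common 2% trimmed mean (by 1.17, 0.984, 0.877 and 1.01 for wild-type vehicle and chlorhexidine, then transgenic), floored at 0.1 and put on the log2 scale. Of 45101 probe sets, 64 controls were left out. Platform annotation gave 1 symbol for 34945 probe sets, several for 932 and none for 9160, and symbols were updated through RefSeq (GRCm38.p6). Each gene took its probe set with the highest mean. Fits used limma 3.58.1 in R 4.3.3. The fit code was also run on simulated data with independent noise and equal responses in both genotypes. That run does not check the p-values given here. The number of arrays limits the precision. Members, the 13 companion lists and tests were chosen with earlier results of these data known. Named genes were the members, the other aquaporins, the 3 nearest genes of each member Present on at least 2 arrays, and up to 3 of the brightest genes of a list. Genes outside this rule were named after their values were seen. Alternatives were other scalings, a pseudocount of 32, other probe-set rules and thresholds, the other vehicle array, a trended prior and no filter on dim genes. Each other probe set of a gene was added after seeing the data.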

Additional observations from a re-analysis of the deposited data

Results flagged for a closer look

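In 3 probe sets of detected aquaporins the chlorhexidine difference had opposite signs in the 2 genotypes, on 1 array per group, and the difference between genotypes was not tested. The dimmest Aqp4 probe set, 1447745_at, was at 0.08 in wild type and -0.83 in transgenic mice on the log2 scale. The dim Aqp7 probe set 1418848_at was at 1.25 and -1.21. The Aqp11 probe set 1447606_x_at was at -0.31 and 0.20, with a Present call on the transgenic chlorhexidine array alone, so both wild-type signals were not above background.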

How the results depend on the processing

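Aqp4 was called lower in wild type in 9 of 11 alternatives, but not with the mean of its probe sets or at 3-fold (0 aquaporins each), and probe set 1447745_at, chosen after seeing the data, gave 0.08. Without the filter on dim probe sets 1 aquaporin, the Absent Aqp5, was called higher in each genotype. At 1.5-fold 2, Aqp4 and Aqp7, were lower in transgenic mice. With the mean of probe sets 1, Aqp7, was higher in transgenic than wild-type vehicle peritoneum. The limma fit passed 1 aquaporin, Aqp4, for chlorhexidine with a pseudocount of 32 (-0.97, adjusted p = 0.000667) and with an intensity trend in the prior (-1.04, adjusted p = 0.000133), and 0 in 7 others, over a range of 0.000133 to 0.412 for Aqp4. Without shared-sequence probe sets the Aqp7 coefficient was 0.02, and the cause of these changes was not tested. The Aqp1 coefficient kept its sign in 9 of 9 fits, at -0.58 to -0.30. The fit called 12 genes in all as reported, 722 with the deposited scaling, 160 after median centring, 2359 with the pseudocount, 2483 with the trend and 0 in the others. For genotype these counts were 0 as reported and 51 (deposited scaling), 16 (pseudocount) and 55 (trend). The median of all genes in wild type was 0.25 with the deposited scaling, -0.11 after quantile normalization and -0.23 after median centring, and -0.20 in transgenic mice with the deposited scaling. The wild-type split of higher and lower genes was 1049 and 629 as reported, 1586 and 318 (deposited scaling), 868 and 752 (quantile) and 723 and 1225 (median centring), and the transgenic split 486 and 178 against 329 and 320 (deposited scaling). No paired analysis was possible because the labels give no replicate numbers and each group is 1 array. Signal over background limits Aqp3, Aqp5, Aqp9 and Aqp11.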
